A study of Mus musculus with 11 samples.

Results

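The complement system is a cascade of blood and tissue proteins that tags cells and debris for removal and calls in immune cells. The 9 complement genes described here were chosen by name as parts of its classical and alternative arms, with the C1 inhibitor and the receptor for C3a. Earlier results of these data were known when they were chosen. They are C1qa, C1qb, C1qc, C1ra, C4b, C3, Cfb, Serping1 and C3ar1, of 46517 genes in the count table. All 9 were found in the table, and 8 had enough counts to be tested; Cfb did not.

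The data are bulk RNA-seq counts of mouse ventricular myocardium from 11 mice, 1 library each, in 4 groups. KO TAC (n = 3) and KO sham (n = 3) mice had both alleles of Lmnb2, the lamin B2 gene, floxed and carried a Cre recombinase under the cardiomyocyte promoter Tnnt2. WT TAC (n = 3) and WT sham (n = 2) mice are described as carrying the Tnnt2-Cre without the floxed Lmnb2. By that description every mouse had the Cre. The genotype of WT sham 2 is labelled only WT, and that of the remaining control mice Lmnb2 WT. The label WT alone does not state the Cre. TAC is transverse aortic constriction, which narrows the aorta and loads the left ventricle, and sham mice had the operation without it. Surgery was done at 10 to 12 weeks of age, and the interval to sampling is not given in the sources used here. Nothing in the labels pairs the samples, and p-values measure the spread between these libraries.

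Lmnb2 measured 9.72, 3.24 and 4.46 CPM (counts scaled to library size by the TMM method) in the 3 libraries labelled KO TAC, while WT TAC libraries had 2.86, 2.16 and 6.70 CPM. It measured 0.649, 1.81 and 2.43 CPM in KO sham, against 4.44 and 3.86 CPM in WT sham. The targeted gene was thus lower in every KO sham than in either WT sham library, while KO TAC and WT TAC overlapped, so KO below means a library labelled so. The deletion was aimed at cardiomyocytes, while these counts cover every cell of the tissue. Total counts ran from 14770383 to 17333227 per library, at which 3 counts equal 0.143 to 0.278 CPM. KO TAC 1 and WT TAC 3 stood apart from the rest of their groups, with 0.787% and 1.20% of counts from ribosomal protein genes, against 2.92% to 6.31% in the other 4 TAC libraries. Sham libraries had 0.818% to 1.58% in KO and 0.594% to 1.35% in WT. KO TAC 1 and WT TAC 3 were thus at the sham level, and the other 4 TAC libraries were above it. The cardiomyocyte markers summed to 42200 to 52500 CPM in KO TAC, 48100 to 59800 in WT TAC, 63100 to 76900 in KO sham and 56000 to 77800 in WT sham. TAC and sham mice have title numbers in separate ranges, so a batch that follows these cannot be told apart from surgery. Titles end in F in KO TAC 3, WT TAC 1 and KO sham 2 and in M in the other 8.

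In the classical arm, C1q binds antibody or debris and switches on the proteases C1r and C1s, which cut C4 and C2 to form an enzyme that splits C3. C3b coats the target, and factor B builds a further C3-splitting enzyme on it, the alternative arm. The C1 inhibitor blocks C1r and C1s, and the C3a fragment acts through its receptor on myeloid cells. In many tissues macrophages are the main source of C1q and fibroblasts make C1r, C4, C3 and C1 inhibitor, while the liver supplies most of the circulating components.

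The 250 bases before the annotated start of C1qb, C3ar1 and C3 are shown for a gene of each kind below: a C1q chain and the receptor, which were higher after surgery, and C3, which was not called. They are from RefSeq on GRCm38.p6, each on the minus strand and printed 5′ to 3′ in the direction of transcription, at chr4:136886201-136886450 (C1qb), chr6:122856158-122856407 (C3ar1) and chr17:57228137-57228386 (C3). The table held 5 of the 9 genes. Capitals mark matches, on either strand, to 3 motifs: the ETS core GAGGAA, a STAT element written TTCNNNGAA and a C/EBP pattern written TTNNGNAA. No match overlapped another.
C1qb: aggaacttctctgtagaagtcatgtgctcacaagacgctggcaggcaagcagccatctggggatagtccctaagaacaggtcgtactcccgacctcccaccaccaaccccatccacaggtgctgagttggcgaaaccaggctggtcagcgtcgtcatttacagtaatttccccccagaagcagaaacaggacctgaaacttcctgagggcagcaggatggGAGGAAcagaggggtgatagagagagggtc
C3ar1: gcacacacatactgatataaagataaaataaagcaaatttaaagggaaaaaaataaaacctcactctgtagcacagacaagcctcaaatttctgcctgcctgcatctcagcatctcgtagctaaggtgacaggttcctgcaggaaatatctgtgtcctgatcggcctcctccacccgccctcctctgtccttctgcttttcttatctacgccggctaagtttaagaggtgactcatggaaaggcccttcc
C3: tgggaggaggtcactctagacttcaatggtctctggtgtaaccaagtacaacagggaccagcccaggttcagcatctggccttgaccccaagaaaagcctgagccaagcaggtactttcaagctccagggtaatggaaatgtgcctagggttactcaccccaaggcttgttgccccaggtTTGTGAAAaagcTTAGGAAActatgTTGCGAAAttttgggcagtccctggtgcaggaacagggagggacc
The C1qb window held the ETS core once, from 30 to 25 bases before the start, as did 23.1% of 27025 promoter windows of this length. The C3 window held 3 C/EBP matches, at 70 to 63, 58 to 51 and 45 to 38 bases before the start, a pattern present in 36.9% of windows. The STAT pattern (7.18% of windows) matched none of the 3 windows, and no pattern matched the C3ar1 window. A match is a description of letters and not a binding site.

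The first question was which complement genes differ between TAC and sham hearts. With both genotypes in 1 model, 5 of the 8 tested genes rose after TAC and 0 fell, against 10.6% of 14619 genes called higher and 8.96% called lower (edgeR quasi-likelihood test, Benjamini-Hochberg adjusted p under 0.05). The 5 were the 3 C1q chains, C4b and C3ar1, with increases of 2.32-fold to 3.33-fold. The median log2 difference of the 8 was 1.23, against 0.05 for all tested genes. C1ra, C3 and Serping1 were not called. In C1qa, C1qb, C1qc and C3ar1 every TAC library lay above every sham library, which held for 6.58% of tested genes. The 8 genes share their libraries, and in bulk tissue more cells of a type and more RNA per cell cannot be told apart.

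**Figure D1:**
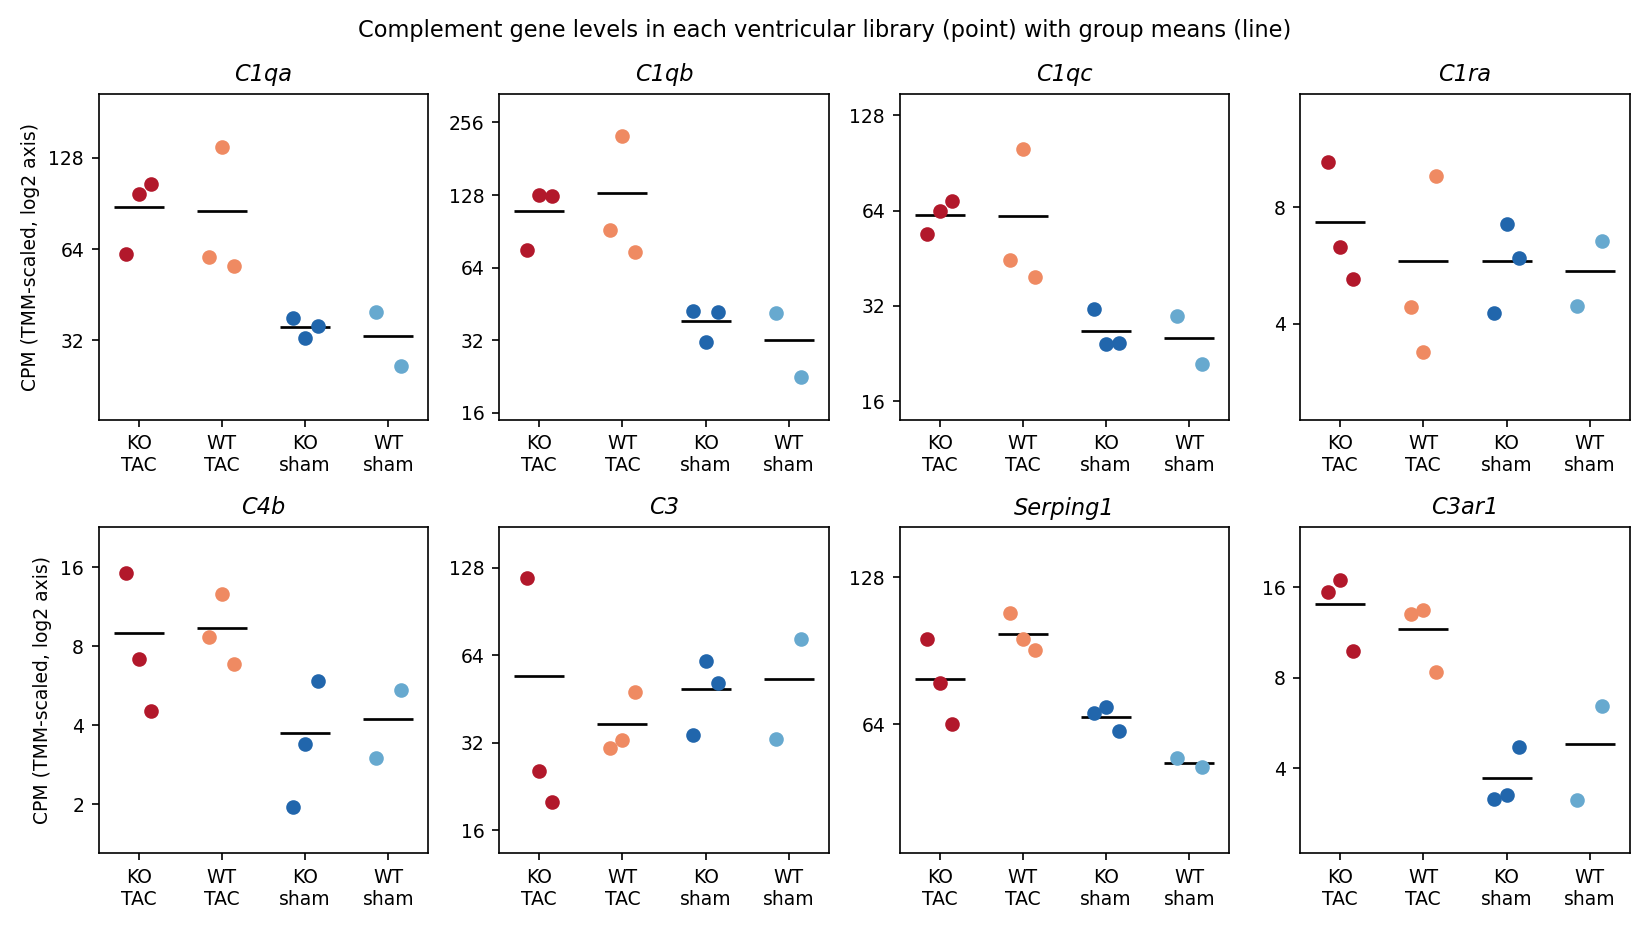
Each point is 1 library and each line a group mean, in TMM-scaled CPM on a log2 axis, for the 8 tested complement genes in KO TAC, WT TAC, KO sham and WT sham hearts. The TAC points of C1qa, C1qb, C1qc and C3ar1 all lie above the sham points, while those of C3 and C1ra are mixed with them and 1 KO TAC library reaches 118 CPM for C3.

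C1qa, C1qb and C1qc encode the A, B and C chains of C1q and lie next to each other on the minus strand of chromosome 4 (GRCm38). C1qa (ENSMUSG00000036887) lies at 136895917 to 136898803, C1qc (ENSMUSG00000036896) at 136889804 to 136893065 and C1qb (ENSMUSG00000036905) at 136880129 to 136886187. C1qb measured 75.5, 128 and 127 CPM in KO TAC and 91.6, 225 and 74.2 CPM in WT TAC, while KO sham hearts had 42.2, 31.6 and 42.0 CPM and WT sham hearts 41.6 and 22.5 CPM. The lowest TAC value was that of WT TAC 3 and the highest that of WT TAC 2, and TAC and sham did not overlap. The model with both genotypes gave a log2 difference of 1.74 ± 0.32 (SE; edgeR adjusted p = 0.00240).

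C1qa measured 61.7, 97.1 and 105 CPM in KO TAC and 60.5, 139 and 56.3 CPM in WT TAC, while KO sham hearts had 37.8, 32.6 and 35.6 CPM and WT sham hearts 39.8 and 26.3 CPM. Its log2 difference over both genotypes was 1.34 ± 0.26 (edgeR adjusted p = 0.00367). C1qc measured 53.9, 63.9 and 68.4 CPM in KO TAC and 44.7, 100 and 39.4 CPM in WT TAC, while KO sham hearts had 31.3, 24.3 and 24.4 CPM and WT sham hearts 29.8 and 21.02 CPM. Its log2 difference was 1.24 ± 0.25 (edgeR adjusted p = 0.00393). WT TAC 2 was the highest library for each of the 3 chains. All 3 calls held in each of 21 other settings, with log2 differences of 1.12 to 1.73 for C1qa, 1.43 to 2.12 for C1qb and 1.03 to 1.64 for C1qc.

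Per kilobase of exon, C1qb averaged 101 ± 27.5 CPM in KO TAC, 120 ± 75.7 in WT TAC, 35.5 ± 5.59 in KO sham and 29.5 ± 12.4 in WT sham (SD). In KO TAC the order per kilobase below C1qb was C1qa at 84.5 ± 22.2, Serping1 at 34.0 ± 6.85, C1qc at 32.1 ± 3.84, C3 at 10.6 ± 10.7, C3ar1 at 3.26 ± 0.876, C1ra at 2.46 ± 0.935 and C4b at 1.57 ± 0.977 CPM (SD, n = 3). Several neighbouring means differed by less than their SDs, but the genes of a pair were measured in the same libraries. The order held within each KO TAC library, except that C1qc was above Serping1 in KO TAC 3 (35.4 against 27.5 CPM per kilobase). C3ar1 and C1ra were close in KO TAC 1, at 3.59 and 3.52 CPM per kilobase.

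Within each genotype the C1q values were close to the threshold. In KO hearts, 1 of the 8 genes was called higher after TAC, against 3.32% of tested genes, and it was C3ar1. C1qa, C1qb and C1qc had log2 differences of 1.31 ± 0.36, 1.51 ± 0.42 and 1.22 ± 0.34 there (edgeR adjusted p = 0.0594, 0.0598 and 0.0626). In WT hearts, 1 of the 8 was called higher, against 3.88% of tested genes, and it was C1qb, at 2.02 ± 0.49 (edgeR adjusted p = 0.0316). C1qa and C1qc had 1.37 ± 0.42 and 1.27 ± 0.39 in WT (edgeR adjusted p = 0.0677 and 0.0696). Unadjusted p was under 0.05 for 5 of the 8 in KO, against 19.3% of tested genes, and for 5 of the 8 in WT, against 25.8%. DESeq2 called 4 of the 8 in KO and 5 in WT, beside 1490 and 2197 of the 14619 tested genes, and edgeR with libraries scaled by their totals likewise called 4 and 5, against 9.47% and 8.05%. The WT call of C1qb was lost in 6 of the 21 settings. Among these, its adjusted p was 0.0756 without WT TAC 2, 0.0528 without KO sham 3, 0.124 without WT sham 1 and 0.262 without WT sham 2. Conversely, in KO C1qa and C1qb were called without KO TAC 1, WT TAC 2 or WT TAC 3 (adjusted p = 0.0201 to 0.0339), and C1qc without WT TAC 2 or WT TAC 3 (0.0176 and 0.0297). In WT, C1qa was called without KO TAC 1 or WT TAC 3 (adjusted p = 0.0434 and 0.0176) and C1qc without WT TAC 3 (0.0167).

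Most macrophage markers were also higher in TAC hearts. Of 18 such markers 17 were tested and 14 were called higher after TAC over both genotypes, against 10.6% of all tested genes. The median log2 difference of the 17 was 1.59, and 1 of them lay below 0, at -1.11. Adgre1, among those called, had 1.65 ± 0.24 (edgeR adjusted p = 0.000627). Lyve1 averaged 12.0 CPM in KO TAC and 14.3 in WT TAC, against 12.5 in KO sham and 13.1 in WT sham. Cd163 averaged 11.3 CPM in KO TAC and 13.1 in WT TAC, against 8.51 in KO sham and 10.9 in WT sham. The summed level of the 18 markers was 345 to 380 CPM in KO TAC and 235 to 601 CPM in WT TAC. KO sham hearts had 125 to 136 CPM and WT sham hearts 121 to 136 CPM. Marco was at or near 0, with 1.52 CPM or less in each library. Timd4 went the other way in WT hearts, with 0.175 to 0.417 CPM in WT TAC against 1.13 to 1.73 CPM in WT sham. In KO TAC it had 0.289 to 2.35 CPM, which overlapped with KO sham. The summed C1q level divided by the summed marker level was 0.554 to 0.843 in KO TAC and 0.386 to 0.772 in WT TAC, against 0.651 to 0.840 in KO sham and 0.515 to 0.921 in WT sham. This ratio overlapped between TAC and sham. Within groups, deviations of the C1q chains from the group mean correlated with those of the marker sum at a Pearson r of 0.54 to 0.62 but a Spearman rho of 0.11 to 0.25 over the 11 libraries, and the part of macrophage number in the C1q result was not tested.

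**Figure D2:**
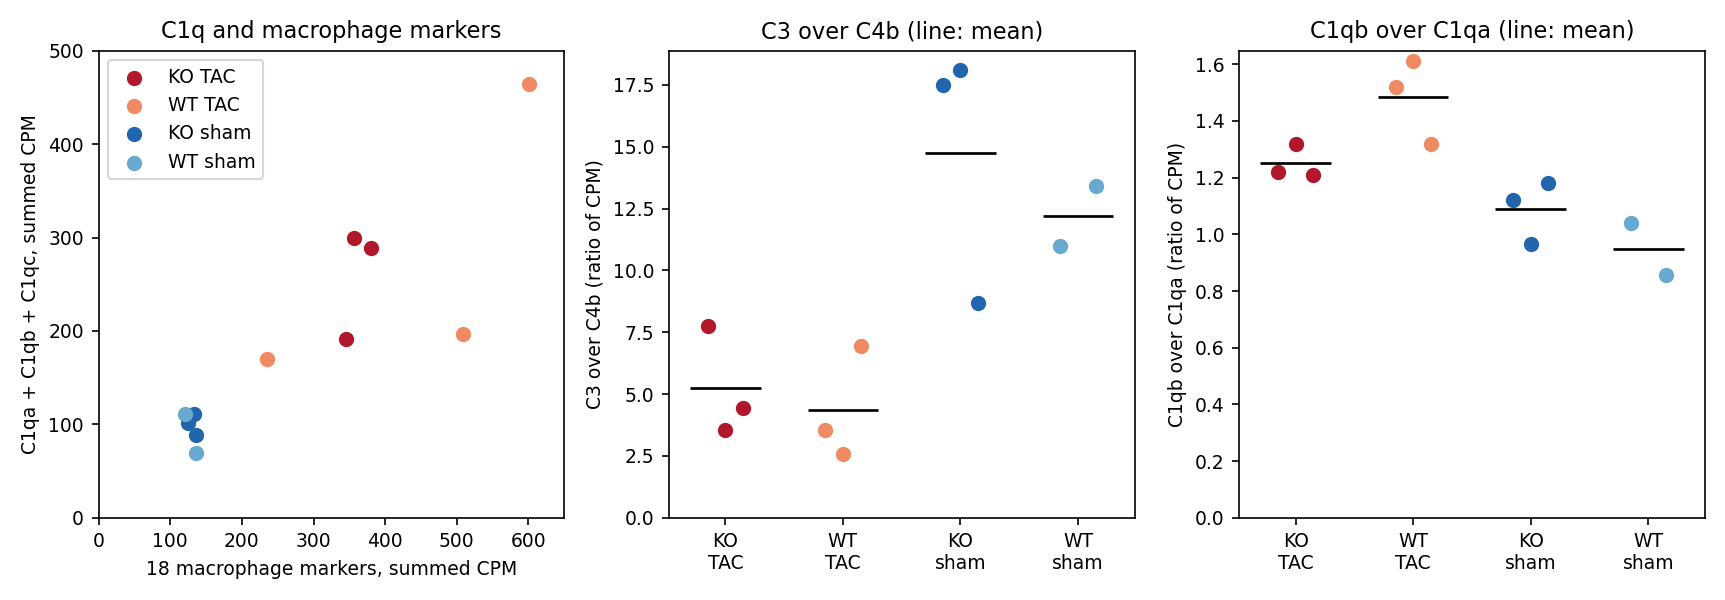
Left, the summed CPM of C1qa, C1qb and C1qc against the summed CPM of 18 macrophage markers, 1 point per library; middle and right, the ratios of C3 to C4b and of C1qb to C1qa in each library, with group means as lines. Both sums are higher in TAC libraries, the C3 to C4b ratio is 2.57 to 7.77 in TAC against 8.69 to 18.1 in sham libraries, and the C1qb to C1qa ratio is 1.21 to 1.61 against 0.856 to 1.18.

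C1ra (ENSMUSG00000055172, chromosome 6, 124512405 to 124523443, plus strand) encodes the C1r protease that C1q activates. It measured 10.5, 6.30 and 5.21 CPM in KO TAC and 4.41, 3.39 and 9.66 CPM in WT TAC, while KO sham hearts had 4.26, 7.24 and 5.90 CPM and WT sham hearts 4.44 and 6.53 CPM. The 2 highest values were those of KO TAC 1 and WT TAC 3, and the groups overlapped. The log2 difference over both genotypes was 0.23 ± 0.31 (95% interval -0.49 to 0.94; edgeR adjusted p = 0.651), and it was -0.25 ± 0.26 without those 2 libraries. Of the 50-base stretches of C1ra transcripts, 48% also occur in its paralog C1rb, so the authors' counting could have split or dropped reads. C1rb had 1 count in all 11 libraries. Endothelium markers, of which 0 of 10 were called, summed to 1120, 601 and 553 CPM in KO TAC, to 354, 366 and 730 CPM in WT TAC, to 496 to 639 CPM in KO sham and to 466 to 533 CPM in WT sham, highest in the same 2 libraries as C1ra. Their part in the C1ra and C3 values was not tested.

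C4b (ENSMUSG00000073418, chromosome 17, 34728380 to 34743882, minus strand) encodes complement C4. It measured 15.2, 7.17 and 4.52 CPM in KO TAC and 8.70, 12.7 and 6.85 CPM in WT TAC, while KO sham hearts had 1.95, 3.38 and 5.90 CPM and WT sham hearts 3.00 and 5.43 CPM. KO TAC 3 lay below the highest sham libraries, so the groups overlapped. The log2 difference over both genotypes was 1.21 ± 0.37 (edgeR adjusted p = 0.0337), with 1.25 ± 0.51 in KO and 1.16 ± 0.58 in WT (edgeR adjusted p = 0.197 and 0.227). The call was lost in 7 of the 21 settings, and without KO TAC 1 the difference was 0.88 (adjusted p = 0.0718). Leaving out KO TAC 2, WT TAC 2, KO sham 1, KO sham 2 or WT sham 1 gave adjusted p of 0.0512, 0.0725, 0.0686, 0.0761 and 0.108, in that order. C4a, whose transcripts share 34.6% of the 50-base stretches of C4b, had 0 to 2 counts per library.

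C3 (ENSMUSG00000024164, chromosome 17, 57203970 to 57228136, minus strand) encodes the protein on which both arms converge. It measured 118, 25.5 and 19.96 CPM in KO TAC and 30.7, 32.6 and 47.7 CPM in WT TAC, while KO sham hearts had 34.1, 61.2 and 51.3 CPM and WT sham hearts 32.9 and 73.0 CPM. KO TAC 1 was the only TAC library above all sham libraries, while the other 2 KO TAC libraries and WT TAC 1 and 2 were below all of them. The log2 difference over both genotypes was -0.15 ± 0.42 (95% interval -1.11 to 0.82; edgeR adjusted p = 0.841), and its sign turned to 0.28 when libraries were scaled by their totals, a scaling that moved the median of all genes to 0.45. Without KO TAC 1 it was -0.83 (edgeR adjusted p = 0.0413), so 1 library decided whether C3 was called lower.

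C3 and C4b, which are related by descent, differed in their order across groups. The ratio of C3 to C4b in CPM was 7.77, 3.56 and 4.42 in KO TAC and 3.53, 2.57 and 6.95 in WT TAC, against 17.5, 18.1 and 8.69 in KO sham and 10.96 and 13.4 in WT sham. Every TAC library lay below every sham library. The ratio was formed after the values of both genes were seen and has no test.

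Cfb (ENSMUSG00000090231, chromosome 17, 34856374 to 34862518, minus strand) encodes factor B. It had 1, 2 and 0 counts in KO TAC and 0 counts in each library of the other 3 groups, and it was not tested. This count cannot be read as a level. The annotated read-through gene Gm20547, on the same strand, covers 2246 bases, or 79.5%, of the exon length of Cfb, and it had 0 counts in every library. Whether the authors' counting kept reads that fall in more than 1 gene is not given in the sources used here. The gene C2, the classical counterpart of factor B, lies beside it and shares 42.8% of its exon length with Gm20547, and it had 0 to 12 counts per library.

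**Figure D3:**
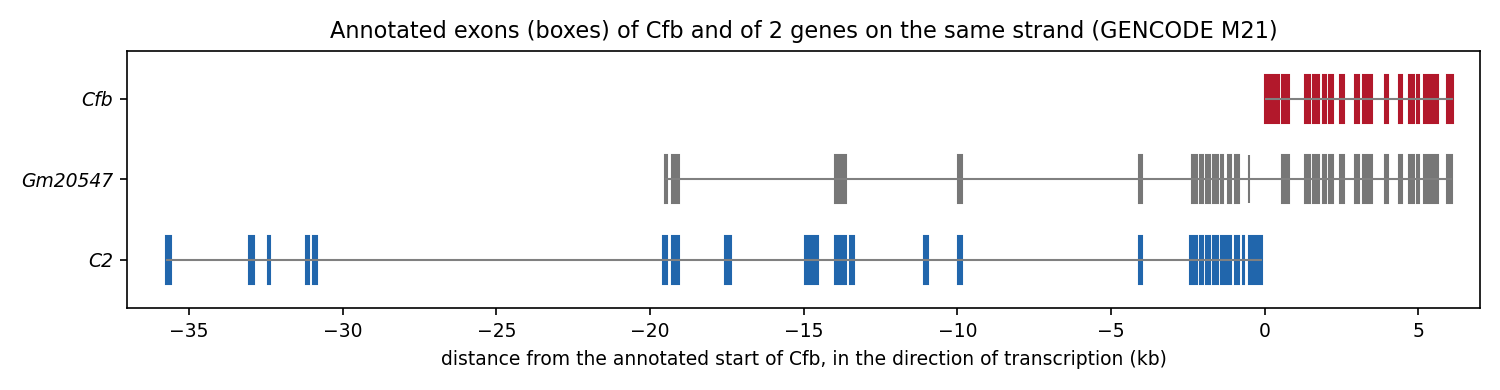
Annotated exons (boxes) of Cfb, of the read-through gene model Gm20547 and of C2 on the same strand, against the distance in kilobases from the annotated start of Cfb. Most exons of Cfb are also exons of Gm20547, 79.5% by length.

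Serping1 (ENSMUSG00000023224, chromosome 2, 84765387 to 84775444, minus strand) encodes the C1 inhibitor. It measured 95.7, 77.6 and 64.0 CPM in KO TAC and 108, 95.4 and 90.8 CPM in WT TAC, while KO sham hearts had 67.5, 69.3 and 62.0 CPM and WT sham hearts 54.5 and 52.3 CPM. WT TAC lay above every sham library, and KO TAC 3 overlapped with KO sham. The log2 difference was 0.25 ± 0.22 in KO, 0.88 ± 0.26 in WT and 0.53 ± 0.18 over both (edgeR adjusted p = 0.616, 0.0595 and 0.0597). It was called over both genotypes without KO TAC 3 (0.65, adjusted p = 0.0293) and with DESeq2 (0.55, adjusted p = 0.0209). In WT it was called without KO TAC 1 (adjusted p = 0.0423) or WT TAC 3 (0.0428). Of 14 fibroblast markers, 8 were called higher and 1 lower over both genotypes, against 10.6% and 8.96% of all tested genes. The 14 markers summed to 3630 to 5130 CPM in KO TAC and 5070 to 9610 CPM in WT TAC, while KO sham hearts had 1790 to 1970 CPM and WT sham hearts 1410 to 1470 CPM. Their part in the values of Serping1, C4b, C3 and C1ra was not tested. Hepatocyte markers summed to 10.4 CPM or less in every library, with Alb at 0.116 CPM or less and Fgb at 0.

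C3ar1 (ENSMUSG00000040552, chromosome 6, 122847138 to 122856161, minus strand) encodes the receptor for C3a. It measured 15.4, 16.9 and 9.78 CPM in KO TAC and 13.05, 13.4 and 8.36 CPM in WT TAC, while KO sham hearts had 3.15, 3.26 and 4.72 CPM and WT sham hearts 3.13 and 6.46 CPM. The lowest TAC library was above the highest sham library. The log2 difference was 1.92 ± 0.36 in KO (edgeR adjusted p = 0.0116), 1.28 ± 0.41 in WT (edgeR adjusted p = 0.0765) and 1.63 ± 0.27 over both (edgeR adjusted p = 0.00150). The last call held in all 21 other settings, with 1.53 to 2.03. The KO call was lost in 4 settings, with an adjusted p of 0.0509 without KO TAC 2, 0.0641 without KO sham 1 and 0.0563 without KO sham 2. In WT it was called without WT TAC 3 (adjusted p = 0.0337).

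**Figure D4:**
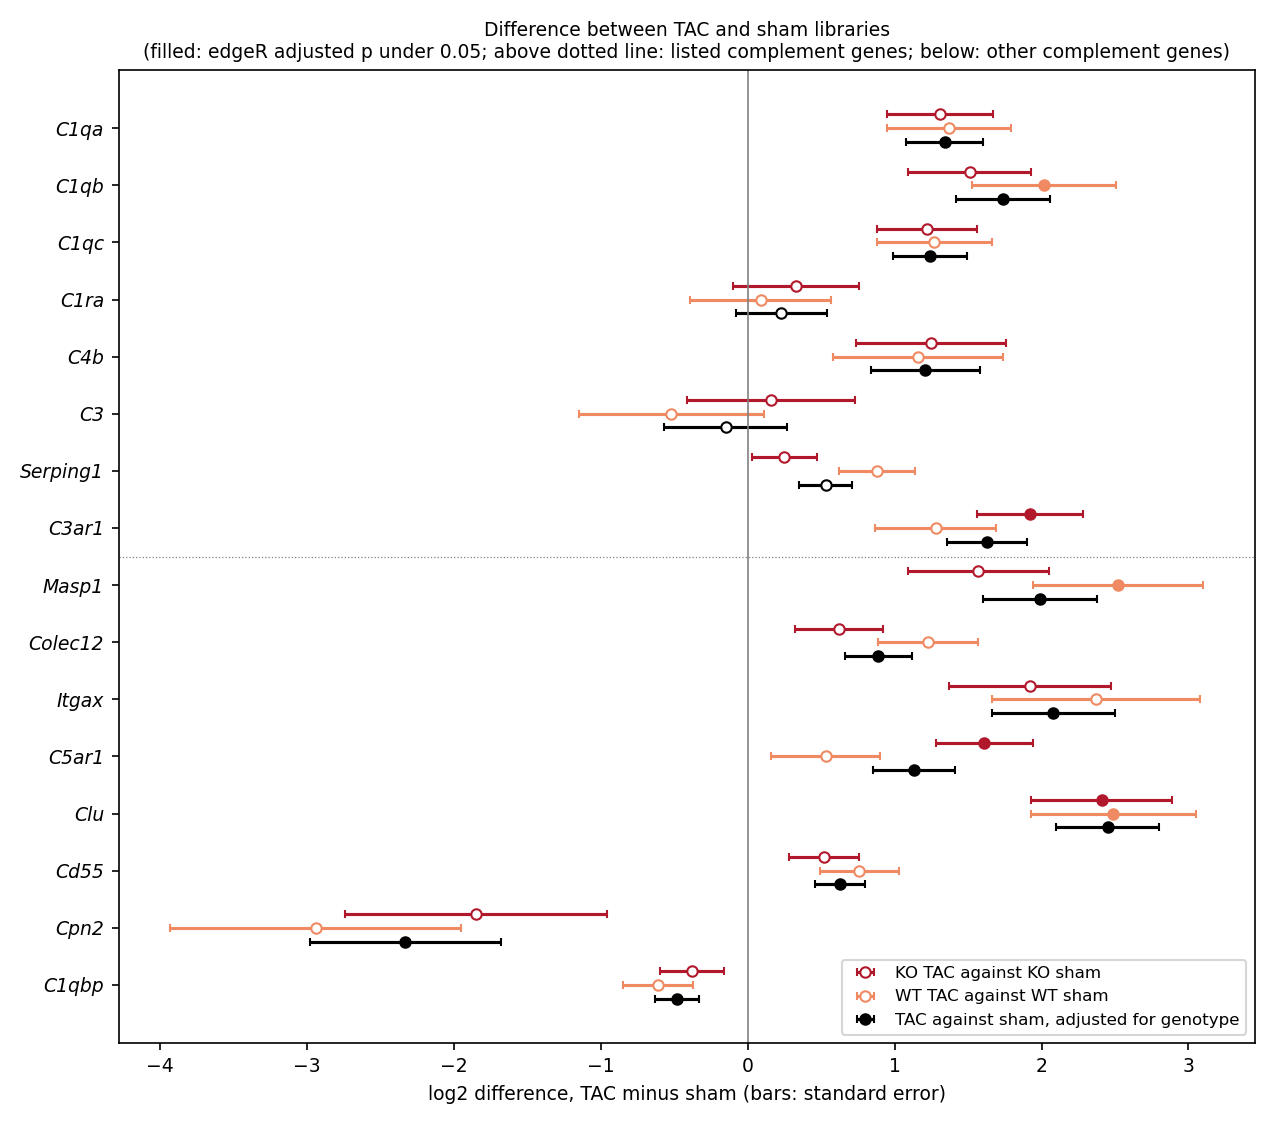
Points are log2 differences, TAC minus sham, with standard errors as bars, in KO, in WT and over both genotypes. Shown are the 8 tested complement genes and the other complement genes called over both genotypes, except Cfi. Filled points passed the edgeR threshold; C1qa, C1qb, C1qc, C4b and C3ar1 are filled over both genotypes, and C3 and C1ra lie near 0 there.

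Among 48 further genes of the complement system, 29 were tested, and over both genotypes 7 were called higher and 2 lower after TAC (median log2 difference 0.57), against 10.6% and 8.96% of all tested genes. In KO hearts 2 of the 29 were called higher, Clu and C5ar1, against 3.32% of tested genes, and in WT hearts 2, Clu and Masp1, against 3.88%, with none lower in either. Clu, or clusterin, which keeps the terminal complex out of membranes, measured 739, 2650 and 1430 CPM in KO TAC and 1320, 2030 and 3200 CPM in WT TAC, while KO sham hearts had 207, 379 and 318 CPM and WT sham hearts 393 and 382 CPM. Every TAC library lay above every sham library, and the log2 difference over both genotypes was 2.45 ± 0.35 (edgeR adjusted p = 0.000494), called in all 21 other settings. It was 2.41 ± 0.48 in KO and 2.49 ± 0.56 in WT (edgeR adjusted p = 0.0140 and 0.0231). The KO call ended without KO TAC 2, KO sham 1 or KO sham 3 (adjusted p = 0.0516, 0.0767 and 0.0686), and the WT call without WT TAC 2, WT sham 1 or WT sham 2 (0.0509, 0.174 and 0.180).

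Masp1, a protease of the lectin arm, measured 8.77, 32.7 and 24.8 CPM in KO TAC and 45.7, 84.8 and 26.8 CPM in WT TAC, while KO sham hearts had 6.76, 8.81 and 6.60 CPM and WT sham hearts 10.6 and 7.64 CPM. KO TAC 1 fell among the sham values, and the log2 difference was 1.57 ± 0.48 in KO, 2.52 ± 0.58 in WT and 1.99 ± 0.39 over both (edgeR adjusted p = 0.0857, 0.0244 and 0.00347). C5ar1, the receptor for C5a, measured 10.1, 7.80 and 10.2 CPM in KO TAC and 5.06, 5.03 and 4.21 CPM in WT TAC, while KO sham hearts had 1.85, 3.98 and 3.27 CPM and WT sham hearts 3.38 and 3.23 CPM. Its log2 difference was 1.61 ± 0.33 in KO, 0.53 ± 0.37 in WT and 1.13 ± 0.28 over both (edgeR adjusted p = 0.0173, 0.389 and 0.0133). The difference between those effects was 1.08 ± 0.49 and did not pass the edgeR test (adjusted p = 0.992). The KO call of C5ar1 ended without KO sham 1 or KO sham 3 (adjusted p = 0.0726 and 0.0686). The WT call of Masp1 ended without any 1 of WT TAC 1, WT TAC 2, WT sham 1 and WT sham 2 (0.0552, 0.0705, 0.154 and 0.206), and Masp1 was called in KO without KO TAC 1 or WT TAC 3 (0.0150 and 0.0377).

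The other genes called higher over both genotypes were Itgax, the CD11c subunit of complement receptor 4, at 2.08 ± 0.42, the scavenger collectin Colec12 at 0.89 ± 0.23, Cd55, which dissolves C3-splitting enzymes, at 0.63 ± 0.17, and Cfi (edgeR adjusted p = 0.00409, 0.0179, 0.0225 and 0.0294). Cfi, which encodes the protease that inactivates C3b, had 1, 18 and 15 counts in KO TAC and 19, 116 and 2 in WT TAC, against 1, 2 and 0 in KO sham and 0 and 0 in WT sham, and WT TAC 2 alone held most of its counts. Itgax had 45, 27 and 45 counts in KO TAC and 13, 22 and 15 in WT TAC. Sham libraries had 5, 9 and 9 counts of it in KO and 2 and 3 in WT. C1qbp, a mitochondrial protein named for binding C1q, fell by 0.48 ± 0.15 on the log2 scale (edgeR adjusted p = 0.0424). Cpn2, a subunit of the carboxypeptidase that trims C3a, fell by 2.33 ± 0.65 (edgeR adjusted p = 0.0241). Its counts were low, at 20, 5 and 0 in KO TAC and 4, 6 and 5 in WT TAC. Sham libraries had 8, 33 and 27 counts of Cpn2 in KO and 43 and 22 in WT. These last calls were near the threshold: leaving out any 1 of several libraries ended the call of Colec12 (WT sham 1 or 2), Cd55 (KO TAC 3, KO sham 1 or 2, WT sham 1 or 2), Cfi (KO TAC 2 or 3, KO sham 3, WT sham 1 or 2) and Cpn2 (KO TAC 2, WT TAC 2, KO sham 2 or 3, WT sham 1 or 2). C1qbp was not called in 14 of the 21 settings, which include leaving out any 1 library except KO TAC 1 and WT TAC 3.

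Of the other tested genes, C1s1, which encodes the C1s partner of C1r, had a log2 difference of 0.40 ± 0.24 over both genotypes (edgeR adjusted p = 0.258). Cfd, factor D of the alternative arm, measured 23.2 CPM in WT TAC 3 and 2.64 CPM or less in every other library. Adipocyte markers summed to 17.1 CPM in WT TAC 3, and their part in that value was not tested.

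The next question was whether complement genes differed by genotype. No complement gene was called in KO TAC against WT TAC, in KO sham against WT sham or in the interaction, the TAC effect in KO minus that in WT, by edgeR, DESeq2 or limma-voom. In each of these comparisons 0.00% of tested genes were called by edgeR, and DESeq2 called 0.0410%, 0.0205% and 0.0137% in the order given. By edgeR, an unadjusted p under 0.05 was reached by 0 of the 8 complement genes in each, against 6.36%, 1.27% and 2.97% of tested genes in that order. Of the 29 other complement genes tested, 6, 1 and 2 reached it in the same order. In each comparison this was a larger share than that of all tested genes, while 0 of the 29 were called by edgeR. Log2 differences of the 8 ran from -0.31 to 0.56 in KO TAC against WT TAC, from -0.36 to 0.31 in KO sham against WT sham and from -0.62 to 0.67 in the interaction. Serping1 had the smallest p in each. It was -0.31 ± 0.22 in KO TAC against WT TAC (95% interval -0.84 to 0.22) and 0.31 ± 0.25 in KO sham against WT sham (-0.29 to 0.91). Its interaction was -0.62 ± 0.34 (-1.43 to 0.18; unadjusted p = 0.0895, edgeR adjusted p = 0.992). For C3ar1 the interaction was 0.63 ± 0.53 (-0.62 to 1.89; edgeR adjusted p = 0.992). C3 in KO TAC against WT TAC was 0.56 ± 0.57 (-0.80 to 1.92; edgeR adjusted p = 0.797) and turned to -0.74 when KO TAC 1 was left out. The intervals of C3 and of both interactions include effects of more than 1 log2 unit, so effects of that size lie within the error.

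Within groups, the complement genes fell into sets that varied together. Deviations of log2 CPM from the group mean over the 11 libraries correlated between C1qa and C1qb with a Pearson r of 0.98 (Spearman rho 0.97), between C1qa and C1qc with 0.95 (0.92) and between C1qb and C1qc with 0.94 (0.93). Against these, C1ra had r of -0.79 to -0.84 and C3 -0.46 to -0.63, while C1ra and C3 correlated with each other at 0.77 (0.75). C4b went with C3ar1 at 0.76 (0.70) and with C3 at 0.73 (0.72). The points share libraries and scaling, and groups hold 2 or 3 of them. The share of counts from ribosomal protein genes varied with the same axis, at r of -0.89 for C1ra, -0.85 for C3, 0.56 for C1qa, 0.63 for C1qb, 0.46 for C1qc, -0.40 for C4b, -0.22 for Serping1 and -0.01 for C3ar1. The endothelium marker sum had r of 0.88 with C1ra and 0.74 with C3 (rho 0.81 and 0.68), and the fibroblast marker sum -0.51 with each (rho -0.32 and -0.56). The part of these features in the values of the complement genes was not tested. With the ribosomal protein share in the model, the log2 differences over both genotypes were 1.16 for C1qa, 1.43 for C1qb, 1.12 for C1qc, 1.39 for C4b and 1.64 for C3ar1, all called. That share ran from 0.787% to 2.94% in KO TAC and from 1.20% to 6.31% in WT TAC, against 0.594% to 1.58% in sham libraries. It partly followed surgery, so this model cannot fully tell the 2 apart.

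**Figure D5:**
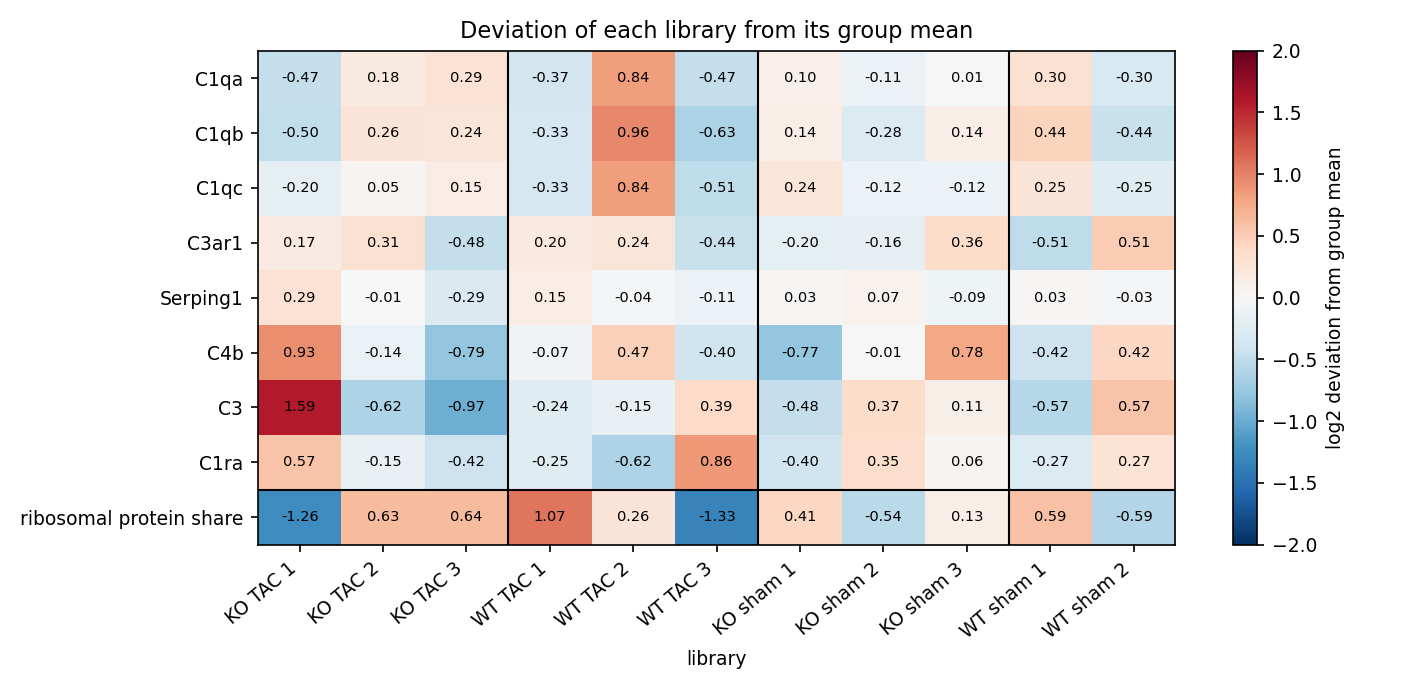
Colour and number give the deviation of each library from its group mean in log2 units, for 8 complement genes and, in the bottom row, the share of counts from ribosomal protein genes. The 3 C1q rows share their pattern, and C3 is 1.59 above its group mean in KO TAC 1, where the ribosomal protein share is low.

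Likeness was searched over 11918 tested genes averaging 1 CPM or more. Those whose deviations were most like those of C1qa were C1qb (r 0.981), Dhrs11 (0.979), Grhpr (0.966) and Gss (0.966). Those most like C3 were Nod2 (0.968), Dhx8 (0.964), Mcm3 (0.963) and Pml (0.961). Those most like C4b were Adamts12 (0.942), Kbtbd2 (0.927), Itgam (0.927) and Rbpms2 (0.926), and those most like Serping1 were Gcc2 (0.931), Btbd11 (0.930), Bcar3 (0.927) and Stau1 (0.927). Itgam shares 68.7% of its exon length with the gene model Gm49368 on the same strand, so the authors' counting could have dropped some of its reads. These are correlations over 11 libraries that share groups and composition, chosen as the highest of all genes searched.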

How the data were processed

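The labels' protocols describe Trizol extraction of ventricular RNA. The deposited table holds whole-number read counts per Ensembl gene, 1 column per library; all 11 were used (0 left out). STAR 2.5.1, featureCounts, DESeq2 and GRCm38 are named in the submitters' processing notes; the annotation version, strand setting and handling of reads in several places are not given in the sources used here. GENCODE M21 gave a symbol for 46005 of 46517 identifiers, and 22282 had no count.

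The analysis used edgeR 4.0.16 in R 4.3.3: filterByExpr kept 14619 genes, TMM scaled the libraries, and the quasi-likelihood test was fitted to all 11 libraries with 1 mean per group (7 residual degrees of freedom), or with surgery and genotype as terms for the comparison over both genotypes. Tests were 2-sided, adjusted by Benjamini-Hochberg over all tested genes, with a threshold of 0.05. Standard errors and 95% intervals derive from the F statistic and are approximate. Log2 CPM used a prior count of 2. No pair of libraries was near-identical. The test was tried on simulated counts.

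The complement genes, the gene lists and the tests were chosen with earlier results of these data known. Named genes were the 9 complement genes, C4a and C1rb, other complement genes called in a comparison of TAC with sham, and the 4 genes most like C1qa, C3, C4b and Serping1. C2, C1s1, Cfd, Adgre1, Lyve1, Cd163, Marco, Timd4, Alb and Fgb were added after their values were seen. DESeq2 1.42.0 and limma 3.58.1 (voom) were alternatives, with other scalings, filters, covariates and left-out libraries. Some genes are not reported here.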

Additional observations from a re-analysis of the deposited data

How the results depend on the processing

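Over both genotypes the count of complement genes called moved little, between 4 and 6 when 1 library was left out. The counts pool both directions. Over both genotypes, without KO TAC 1, C4b was no longer called and C3 was called lower. In KO TAC against KO sham, C3 was likewise called lower without both WT TAC 3 and KO TAC 1. Within genotypes the count depended on the setting. In KO TAC against KO sham the count of 1 became 4 with library totals, DESeq2 or the ribosomal protein share as a covariate, 5 with no filter or without both WT TAC 3 and KO TAC 1, and 0 with title letter M only (0 to 4 leaving out 1 library). In WT TAC against WT sham the count of 1 became 5 with library totals, DESeq2 or without both of those libraries, 4 with no filter, and 0 with letter M only or the covariate (0 to 5 leaving out 1 library). In the genotype comparisons it was 0 in every setting run. For the other complement genes, the 2 calls in KO became 7 with library totals, 5 with no filter or without both libraries, 4 with DESeq2 and 0 with letter M only (0 to 3 leaving out 1). The 2 in WT became 5, 7, 11, 7 and 0 in those settings in the same order (totals, no filter, without both, DESeq2, letter M only), and 1 with the covariate (0 to 8 leaving out 1). The 9 over both genotypes became 14 with totals and 4 with letter M only (4 to 11 leaving out 1). Settings also differed in how many of the 14619 tested genes they called. The main setting called 486 higher and 201 lower in KO, and 567 higher and 444 lower in WT. DESeq2 called 1490 in KO and 2197 in WT, and library totals 1385 and 1177. For the remaining settings this number is not reported here, so a changed count there cannot be read as a result about complement genes. Library totals put the median log2 difference of all genes at 0.49 in KO, 0.37 in WT and 0.45 over both, against 0.03, 0.05 and 0.05 with TMM.

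The signs of C1ra, C3 and C3ar1 turned in some settings, and that of C1qbp with library totals, where it was still below the median of all genes. In KO TAC against KO sham, C1ra was -0.05 and C3 -1.13 without both libraries, C3 was -0.28 with limma-voom, and C1qbp was 0.09 with totals. In WT TAC against WT sham, C1ra was -0.00 with limma-voom, which is no direction, and -0.50 without both, and C3 was 0.54 with the covariate. Over both genotypes, C1ra was -0.25 without both, and C3 was 0.28 with totals, 0.20 with letter M only and 0.35 with the covariate. In KO TAC against WT TAC, C3 was -0.26 with the covariate and -0.50 without both. Leaving out 1 library gave ranges of -0.05 to 0.57 for C1ra and -1.14 to 0.61 for C3 in KO, and of -0.50 to 0.38 and -0.98 to 0.16 in WT. It gave -0.83 to 0.16 for C3 over both, -0.79 to 0.24 for C3ar1 in KO sham against WT sham and -0.74 to 1.01 for C3 in KO TAC against WT TAC. The cause was not tested. Without 1 WT sham library, the lone one left was assumed to vary like the other groups. No paired analysis was possible because the labels share no replicate numbers between groups.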

Other observations

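The ratio of C1qb to C1qa, chains that C1q joins in equal number, was formed per library in CPM. It was 1.22, 1.32 and 1.21 in KO TAC and 1.52, 1.61 and 1.32 in WT TAC, against 1.12, 0.967 and 1.18 in KO sham and 1.04 and 0.856 in WT sham. Every TAC library lay above every sham library, with KO TAC 3 and KO sham 3 closest. The ratio of C1qc to C1qa, at 0.652 to 0.874 in KO TAC and 0.700 to 0.739 in WT TAC, against 0.686 to 0.828 in KO sham and 0.747 and 0.799 in WT sham, overlapped between them. These ratios were formed after the values were seen and have no test.

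Some complement genes, among them ones made mainly in the liver, had no count. C8a, C8b, C9, Mbl1, Mbl2, Fcnb and Cpn1 had 0 counts in every library, which at 3 counts allows up to 0.143 to 0.278 CPM per library for counting error only.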
